A study of Mus musculus with 3 samples.

Results

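The 10 genes described here encode transcription factors linked to naive and stem-like memory T cells, and were measured in effector memory CD4 T cells. They are Tcf7, Lef1, Bach2, Satb1, Bcl11b, Foxp1, Foxo1, Foxo3, Ets1 and Myb. These were chosen by symbol and make up 10 of the 55536 annotated genes in the deposited gene tables. The RNA was polyA-selected and came from primary alpha-beta CD4 T cells of 1 adult male mouse of the strain B6.SJL-Ptprca Pepcb/BoyJ, aged 5 months, which carries the Ptprca allele of the CD45 gene. Its 3 libraries are labelled technical replicates 1, 2 and 3 of 1 biosample and form 1 group, so no condition was compared. Each SD below is the spread over these libraries and says nothing of the spread between animals. The sources used here do not give the sort gate, and no naive or central memory library was analysed here. In bulk RNA, fewer cells that express a gene and less RNA per cell cannot be told apart.

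Some of these factors are known to hold T cells in a resting and long-lived state, and several to be higher in naive than in effector cells. Tcf7 encodes TCF1, which with LEF1 binds DNA through an HMG box, recruits beta-catenin as a coactivator and Groucho/TLE proteins as corepressors, and maintains stem-like memory cells. BACH2 represses effector genes, FOXO1 sustains genes of homing and survival such as Il7r and Klf2 until AKT phosphorylation moves it out of the nucleus, and FOXP1 holds naive T cells quiescent.

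Library 1 stood apart from the others. Summed expected counts on annotated genes were 17474991 in library 1, against 15303615 in library 2 and 16882311 in library 3, and 12462 genes reached a TPM of 1 (transcript abundance per length, scaled to the same total in each library) in library 1, against 13483 and 13560. Of all counts, 0.609% fell on the 10 factors in library 1, against 0.704% in library 2 and 0.665% in library 3. Libraries 2 and 3 were not copies of one another: 16.7% of 12468 genes tested differed between them beyond counting error. The levels of the factors are therefore given by library, and for those at least 1.5-fold apart in library 1 the mean is also given without it. All 9 alpha-beta T cell markers and all 6 markers of antigen-experienced T cells reached a TPM of 1 in each library. Of the 9 T cell markers 3 lay at least 1.5-fold lower in library 1 and 2 higher: Cd4 had 269 in library 1, against 541 and 523, and Trac 6922, against 3647 and 3493. Of the 6 markers of antigen-experienced cells 4 lay lower by that measure and none higher, with Cd44 at 56.3 in library 1, against 149.99 and 141, and S100a4 at 23.2, against 178 and 224. The shares of all detected genes were 23.9% lower and 17.9% higher, and the part of these shifts in the values of the factors was not tested. Markers of cells that share some of these factors were low. Of 8 B cell markers only Cd22 reached that level, and the defining gene Pax5 had 7 counts over all libraries. No marker of 4 for thymocytes reached it and Rag2 and Dntt had no count. Of 4 progenitor markers 1 did, Kit at a TPM of 1.30 ± 0.193 (SD, n = 3), and of 4 myeloid markers none. The summed TPM of the B cell markers was 14.6 in library 1, against 29.5 and 25.7 in libraries 2 and 3, and Cd22 alone had 12.8, against 26.0 and 22.9. B cells also express Bach2, Foxp1, Ets1 and Foxo1, and the part of this signal in their values was not tested. CD8 and NK cells had 1 marker of 2 each above the level, Cd8b1 at 8.18 ± 2.57 and Klrb1c at 8.68 ± 0.823 (SD, n = 3), while Cd8a and Ncr1 had 3 counts and 1 count in all.

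All 10 factors reached a TPM of 1 in every library, the threshold used here for detection. Their median of mean TPM was 205, and 9 of the 10 stood above 24.1, the median over the 11694 detected genes. The exception was Foxo3. Abundance was uneven, and Ets1 and Tcf7 together made up 67.2% of the summed mean TPM of the 10. The order by mean TPM was Ets1, Tcf7, Satb1, Lef1, Bcl11b, Foxp1, Foxo1, Myb, Bach2 and Foxo3. Of the 9 neighbouring pairs in that order, 4 had ranges over the libraries that did not overlap: Ets1 over Tcf7, Tcf7 over Satb1, Satb1 over Lef1, and Foxp1 over Foxo1. Neighbours among Lef1, Bcl11b and Foxp1 were not separated, and neither were neighbours among Foxo1, Myb, Bach2 and Foxo3. Without library 1 the order changed: Bcl11b, with a mean of 266, stood above Lef1 with 222, and in both remaining libraries. In that new order 8 of the 9 neighbouring pairs were separated, and Lef1 and Foxp1 were not.

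**Figure D1:**
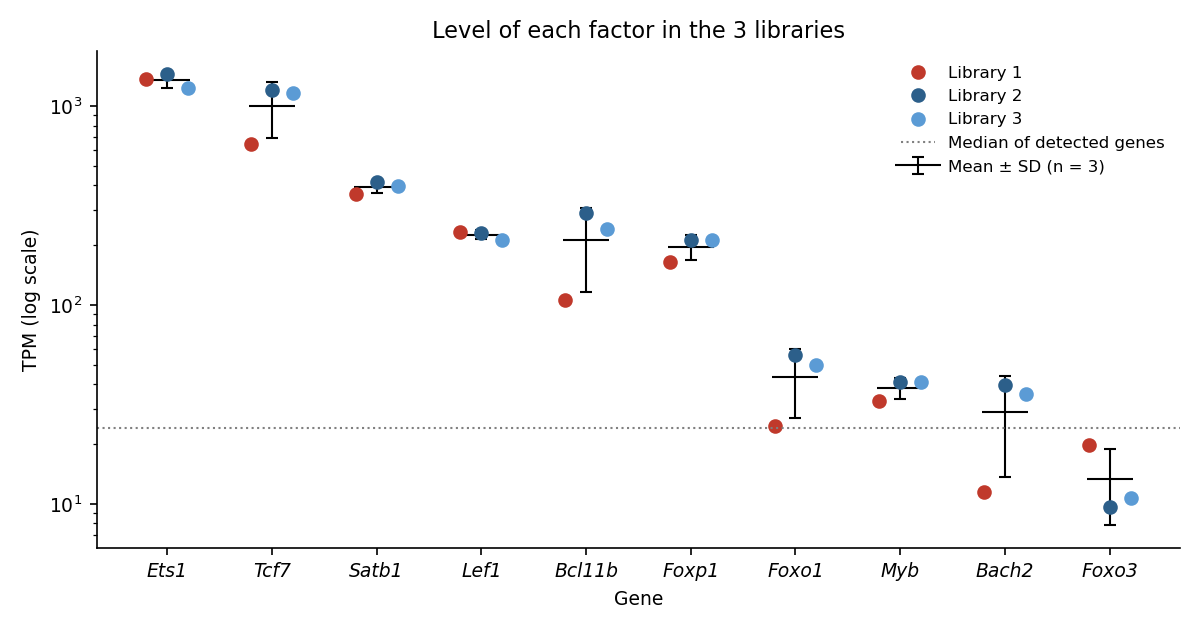
TPM on a log axis for each of the 10 genes in libraries 1, 2 and 3 (points, left to right), with the mean and SD over the 3 libraries (black) and the median of all detected genes (dotted). Ets1 and Tcf7 lie highest in every library, and library 1 lies apart from the others for Tcf7, Bcl11b, Foxo1 and Bach2 (lower) and for Foxo3 (higher).

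Tcf7 (ENSMUSG00000000782.15, chr11:52252371-52283014 on the minus strand of GRCm38, the assembly also called mm10) was the second most abundant. It had a TPM of 647 in library 1, against 1206 in library 2 and 1167 in library 3, with a mean of 1007 ± 312 (SD, n = 3). Libraries 2 and 3 lay close to each other and library 1 lay below both. The estimated counts behind these levels were 15463 in library 1, against 23857 and 26916. Library 1 stood at -0.87 on the log2(TPM + 1) scale relative to the geometric mean of the others. That gap depended on the table. In a separate deposited table of whole-number counts on the older GENCODE M4 annotation, Tcf7 had 1840 counts in library 1, against 1969 and 1979, and the log2 ratio, scaled to the library total, was -0.09. Over the M4 counts Tcf7 did not pass the chi-square test (Benjamini-Hochberg adjusted p = 0.0724), while 68.4% of the genes tested there did. The M4 counts equalled 11.9% of the M21 estimate for Tcf7 in library 1, against 8.25% and 7.35% in libraries 2 and 3, and which table stands nearer to the RNA was not tested. Without library 1 the mean TPM of Tcf7 was 1187. Long and short forms of TCF1, with and without the beta-catenin binding region, are known, but M21 lists 2 transcripts of Tcf7 with the same coding sequence (CDS) of 909 bases. The tables therefore cannot tell these protein forms apart. Tcf7-201 held 73.1% ± 0.5003 and Tcf7-202 26.9% ± 0.5003 of the gene's transcripts (SD, n = 3). This split was nearly constant, at 72.6% for Tcf7-201 in library 1, against 73.6% and 73.1%, although the level of the gene was not.

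Lef1 (ENSMUSG00000027985.14, chr3:131110471-131224356, plus strand), the partner of Tcf7 with the same kind of DNA-binding domain, was steadier in TPM but not in the M4 table. Its TPM was 235 in library 1, against 232 and 212, with a mean of 226 ± 12.2 (SD, n = 3). All 3 libraries lay within 1.10-fold in TPM. In the M4 table Lef1 had 1526 counts in library 1, against 1244 and 1270. Its log2 ratio there was 0.29, against -0.09 for Tcf7, and Lef1 passed the chi-square test (Benjamini-Hochberg adjusted p = 4.75e-09). The ratio of Tcf7 to Lef1 within a library, a pair chosen after its values were seen, was 2.76 in library 1, against 5.20 and 5.50. Most estimated Lef1 message was not of the longest form. Lef1-203, whose CDS has 993 bases, held 57.3% of the gene's transcripts in library 1, against 52.5% and 48.9%, a mean of 52.9% ± 4.22 (SD, n = 3). Lef1-201, which has the longest CDS of 1191 bases, held 17.9%, against 13.8% and 16.4%, a mean of 16.0% ± 2.11 (SD, n = 3). The short form was ahead in all 3 libraries. A further 18.4% ± 7.51 (SD, n = 3) went to Lef1-206, a transcript with a retained intron and no CDS, with 9.70% in library 1, against 23.1% and 22.3%.

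The 2 coding forms of Lef1 differ at the start of their CDS, which is shown because the estimated share of the short form rests on it. The first 207 bases of the CDS of Lef1-201, 69 codons at chr3:131111472-131111678 (plus strand), are absent from Lef1-203. In background terms the amino end of LEF1 is its beta-catenin binding region, and a short form made from an internal promoter is known in human cells. Lef1-203 instead starts with 9 bases of its own at chr3:131112812-131112820 and then joins the shared sequence. In the lines below, from the GENCODE M21 transcripts, capitals mark the bases found in that form alone and lower case the shared bases that follow.
Lef1-201: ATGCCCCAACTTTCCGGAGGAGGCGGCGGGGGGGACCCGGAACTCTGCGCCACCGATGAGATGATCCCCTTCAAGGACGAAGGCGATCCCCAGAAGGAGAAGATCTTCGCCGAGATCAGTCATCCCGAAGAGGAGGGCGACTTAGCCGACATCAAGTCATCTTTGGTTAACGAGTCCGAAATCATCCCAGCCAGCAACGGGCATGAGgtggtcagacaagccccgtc
Lef1-203: ATGGCAGGGgtggtcagacaagccccgtc
RefSeq (GRCm38.p6) places a transcription start at 131112791, just before that codon. The promoter window around it, 250 bases before to 50 after, lies at chr3:131112541-131112840 (plus strand), and capitals mark the start codon of Lef1-203.
Lef1 internal promoter: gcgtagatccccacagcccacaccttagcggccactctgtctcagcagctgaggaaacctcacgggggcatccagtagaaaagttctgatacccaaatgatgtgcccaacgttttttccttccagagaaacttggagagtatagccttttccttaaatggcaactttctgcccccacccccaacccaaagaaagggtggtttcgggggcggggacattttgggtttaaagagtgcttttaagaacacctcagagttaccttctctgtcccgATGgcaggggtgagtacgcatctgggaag
The share of Lef1-203 is an estimate from short reads, and only reads that cover the different starts tell these 2 forms apart.

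Other genes of the TCF/LEF group were uneven. Of 14 family members and cofactors 10 were detected, with a median mean TPM of 14.3. The highest were Aes, a short Groucho-related protein, at 704 ± 17.1 and the corepressor gene Ctbp1 at 236 ± 48.8 (SD, n = 3). Not detected were Ctbp2, Tcf7l1, Tcf7l2 and Tle2. Tcf7 and Lef1 thus were the only HMG-box genes among Tcf7, Lef1, Tcf7l1 and Tcf7l2 above the threshold.

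Bach2 (ENSMUSG00000040270.16, chr4:32238804-32586108, plus strand) was the second lowest. It had a TPM of 11.5 in library 1, against 39.6 and 35.8, a mean of 29.0 ± 15.3 (SD, n = 3). The counts were 228 in library 1, against 542 and 570. Library 1 was far below the others, at -1.63 on the log2 scale, the widest gap of the 10. In the M4 table the gap was -1.21, from 107 counts in library 1, against 259 and 256. Without library 1 the mean was 37.7. Prdm1 is a factor of effector cells that BACH2 is known to repress. The ratio of Bach2 to Prdm1 in gene TPM, a pair chosen after its values were seen, was 1.13 in library 1, against 3.13 and 3.57. The gene TPM of Bach2 includes transcripts with no CDS, which held 61.75% of its transcripts in library 1, against 69.66% and 69.64%. The ratio therefore does not compare the coding message of these genes. Only 5.41% ± 0.786 of Bach2 transcripts (SD, n = 3) were of the class with a CDS at least 90% of the longest annotated one, which is called full-length here. The leading transcript was Bach2-205, which has 336 bases and no CDS, at 43.4% ± 6.58, followed by the coding Bach2-201 at 27.6% ± 3.80 (SD, n = 3). Bach2-201 lacks 369 bases of the longest CDS. The deposited TPM intervals of these leading transcripts were apart in 1 of 3 libraries, so their order is not firm at these counts. All 6 genes of the BACH and MAF list were detected, led by Nfe2l2, a related stress-response factor, at 81.2 ± 4.67 and the MAF partner Maff at 71.1 ± 25.3 (SD, n = 3). Maff had 42.1 in library 1, against 82.6 and 88.7. Of these 6 genes 4 lay at least 1.5-fold lower in library 1, where 23.9% of all detected genes did.

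Satb1 (ENSMUSG00000023927.15, chr17:51736187-51833290, minus strand), which encodes a chromatin organiser of T cells, had a TPM of 364 in library 1, against 418 and 396, a mean of 393 ± 27.2 (SD, n = 3). The 3 libraries lay within 1.15-fold. Full-length transcripts made up 61.6% ± 1.33 of Satb1, short coding ones 20.7% ± 4.72 and those with no CDS 17.7% ± 3.42 (SD, n = 3). The short coding ones all have an incomplete annotated CDS, so the length of their full CDS is not known here. Satb1-204 led with 37.1% ± 4.91, ahead of Satb1-203 with 13.4% ± 3.27 (SD, n = 3), and both have a CDS of 2292 bases. The locus also holds unclassified same-strand genes that share no exon base with Satb1. Of these, C230085N15Rik had a mean TPM of 77.8, 5830444F18Rik 61.0, Gm37248 39.4 and E430014B02Rik 26.0. Gm36931 on the same strand and Gm6934 on the other share 156 and 128 exon bases with Satb1, at mean TPM values of 1.88 and 8.81. The sources used here do not give the strand setting of the counting, so counts of overlapping genes are uncertain.

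Bcl11b (ENSMUSG00000048251.15, chr12:107910403-108003602, minus strand) encodes a zinc-finger factor needed for T-lineage commitment. Its TPM was 106 in library 1, against 291 and 241, a mean of 213 ± 95.9 (SD, n = 3). Library 1 was lower than both others, at -1.32 on the log2 scale, and in the M4 table at -0.78. Libraries 2 and 3 also differed beyond counting error (chi-square 95.2, Benjamini-Hochberg adjusted p = 1.50e-20). Without library 1 the mean was 266. Its paralog Bcl11a had 4 counts over all libraries. Full-length forms made up 90.2% ± 5.47 (SD, n = 3). Of all Bcl11b transcripts, Bcl11b-203 held 55.4% in library 1, against 71.7% and 68.4%, and Bcl11b-201 held 28.8%, against 23.3% and 23.2%. Bcl11b-203 led in all 3 libraries, with means of 65.2% ± 8.57 and 25.1% ± 3.22 for the 2 forms (SD, n = 3).

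The coding sequences of these Bcl11b forms differ by 1 exon of 216 bases, 72 codons at chr12:107965672-107965887 (minus strand), and the sequences show what the leading form leaves out. In Bcl11b-201 capitals mark that exon, and in Bcl11b-203 they mark the first bases after the direct junction.
Bcl11b-201: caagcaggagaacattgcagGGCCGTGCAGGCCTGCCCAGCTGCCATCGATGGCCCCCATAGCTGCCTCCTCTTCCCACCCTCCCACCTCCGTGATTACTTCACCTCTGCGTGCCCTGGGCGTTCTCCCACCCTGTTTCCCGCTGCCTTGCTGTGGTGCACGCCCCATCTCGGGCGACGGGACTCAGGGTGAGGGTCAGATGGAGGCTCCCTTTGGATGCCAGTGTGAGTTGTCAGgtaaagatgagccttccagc
Bcl11b-203: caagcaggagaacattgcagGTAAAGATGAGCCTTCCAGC

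Foxp1 (ENSMUSG00000030067.17, chr6:98925338-99522721, minus strand) had a TPM of 165 in library 1, against 212 and 214, a mean of 197 ± 27.6 (SD, n = 3). Library 1 was lower than both others by less than 1.5-fold, at -0.36 on the log2 scale and at -0.07 in the M4 table. With 31 annotated transcripts it was the most divided gene of the 10. Foxp1-230 held 21.7% ± 2.34 and Foxp1-228 21.4% ± 3.29 (SD, n = 3), with overlapping deposited intervals in all 3 libraries, and Foxp1-230 was ahead in 1 of them. Foxp1-228 has the longest CDS, 2118 bases, and Foxp1-230 lacks its first 390 bases. Transcripts that start at another codon than the longest CDS made up 52.9% ± 6.99 of the gene (SD, n = 3). Of the other FOXP genes only Foxp4 was detected, with a TPM of 4.24 in library 1, against 14.94 and 14.95. Foxp2 was not detected, and neither was Foxp3, which marks regulatory T cells, with a TPM of 0.950 in library 1, against 2.70 and 1.23.

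Foxo1 and Foxo3 encode forkhead factors under the control of AKT, and their library 1 values lay on opposite sides of the other libraries. Foxo1 (ENSMUSG00000044167.6, chr3:52268336-52353221, plus strand) had a TPM of 24.8 in library 1, against 56.0 and 50.2, a mean of 43.6 ± 16.6 (SD, n = 3). Foxo3 (ENSMUSG00000048756.11, chr10:42181841-42276755, minus strand) had 19.8 in library 1, against 9.69 and 10.7, a mean of 13.4 ± 5.55 (SD, n = 3). For Foxo1 library 1 was below both others and for Foxo3 above both. The log2 ratios were -1.07 and 0.89 in TPM, and -0.54 and 0.74 in the M4 table. The ratio of Foxo1 to Foxo3 within a library, chosen after its values were seen, was 1.25 in library 1, against 5.78 and 4.69. Without library 1 the means were 53.1 for Foxo1 and 10.2 for Foxo3. Foxo3 rested on 442 counts in library 1, against 205 and 322, and its gap between libraries 2 and 3 passed the chi-square test (Benjamini-Hochberg adjusted p = 0.000967). Gm20402, an antisense gene that shares 674 exon bases with Foxo1, had a TPM of 43.8 in library 1, against 81.6 and 74.0. Its library pattern ran the same way as that of Foxo1, and its part in the counts of Foxo1 was not tested.

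Foxo1 has 1 annotated transcript, whereas Foxo3 had a short one in front. Foxo3-202, with a CDS of 732 bases against 2016 in the longest, held 80.9% of the gene's transcripts in library 1, against 74.8% and 61.3%, a mean of 72.4% ± 10.02 (SD, n = 3). Foxo3-203, with the longest CDS, held 14.3%, against 20.8% and 27.0%. The short form led in each library. It lacks the last 1398 bases of the longest CDS and ends with 114 bases of its own at chr10:42247673-42247786 (minus strand), in capitals below after the last shared bases.
Foxo3-202: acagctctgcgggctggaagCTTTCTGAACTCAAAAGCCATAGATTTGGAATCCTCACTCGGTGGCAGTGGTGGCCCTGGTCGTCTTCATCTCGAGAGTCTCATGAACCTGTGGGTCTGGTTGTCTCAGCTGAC
In absolute terms Foxo3-202 had a TPM of 16.0 in library 1, against 7.25 and 6.57, and Foxo3-203 had 2.84, against 2.02 and 2.89. Library 1 was above both others for the short form and between them for Foxo3-203.

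Genes around the FOXO factors were expressed. Of 9 relatives, kinases and phosphatases 8 were detected, led by Akt1 at 103 ± 9.68 and Akt2 at 79.9 ± 2.25 (SD, n = 3), and Foxo6 was not. All 13 listed FOXO targets in lymphocytes were detected, with a median mean TPM of 86.4. The highest were S1pr1, a receptor for exit from lymph nodes, at 643 in library 1, against 764 and 716, and Klf2 at 400 in library 1, against 869.85 and 805. Of the 13 targets 5 lay at least 1.5-fold lower in library 1 and 1 at least 1.5-fold higher. Over all detected genes the shares were 23.9% lower and 17.9% higher.

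Ets1 (ENSMUSG00000032035.15, chr9:32636221-32757820, plus strand), which encodes a factor of T cell survival and the founding member of the ETS family, was the most abundant. Its TPM was 1371 in library 1, against 1455 and 1236, a mean of 1354 ± 111 (SD, n = 3). Only 77 detected genes had a higher mean. In TPM library 1 lay between the others, and libraries 2 and 3 were 0.24 apart on the log2(TPM + 1) scale. The counts were 62297 in library 1, against 48391 and 47915. In these counts libraries 2 and 3 differed beyond counting error (chi-square 282, Benjamini-Hochberg adjusted p = 1.11e-60). From counts under TMM scaling the log2 ratio of library 1 to the others was 0.35, against 0.03 in TPM and -0.02 in the M4 table. Of 15 listed genes, other members of the ETS family and the partner gene Gabpb1, 12 were detected, with a median mean TPM of 41.8. The highest were Gabpb1, which encodes a subunit bound by the ETS protein GABPA, at 242 ± 33.6 and Elf1 at 214 ± 51.0 (SD, n = 3). Spi1, Spib and Erg were not detected. Erg had no count, and 3 counts would have given a TPM of 0.136 in library 1, against 0.165 and 0.141. The TPM ratio of Ets1 to Fli1, the ETS gene next to it in the genome, was 15.2 in library 1, against 14.6 and 13.3, for a pair chosen after its values were seen.

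Ets1-201, with the longest CDS of 1320 bases, held 75.1% of Ets1 transcripts in library 1, against 60.4% and 60.2%. Ets1-202, with 1059 bases, held 18.8%, against 28.3% and 29.5%. The longer form led in every library, and its share was higher in library 1 than in both others. The means were 65.2% ± 8.57 and 25.5% ± 5.86 (SD, n = 3). The CDS of the shorter form leaves out 1 exon of 261 bases, 87 codons at chr9:32738099-32738359 (plus strand). That exon is known to carry inhibitory sequence for DNA binding, so it is printed with the junction that replaces it. Capitals mark the exon in Ets1-201 and the bases after the junction in Ets1-202.
Ets1-201: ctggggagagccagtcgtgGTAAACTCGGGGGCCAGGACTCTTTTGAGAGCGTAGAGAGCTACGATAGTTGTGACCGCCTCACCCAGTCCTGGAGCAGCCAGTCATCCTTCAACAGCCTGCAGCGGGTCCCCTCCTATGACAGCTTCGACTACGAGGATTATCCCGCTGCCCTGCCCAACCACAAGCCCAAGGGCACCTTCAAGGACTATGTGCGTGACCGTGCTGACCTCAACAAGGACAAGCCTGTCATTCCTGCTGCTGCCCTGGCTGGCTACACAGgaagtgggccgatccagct
Ets1-202: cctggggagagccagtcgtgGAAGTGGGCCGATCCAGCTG

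Myb (ENSMUSG00000019982.15, chr10:21124935-21160984, minus strand), known as a factor of progenitors and of stem-like memory CD8 T cells, had a TPM of 33.0 in library 1, against 41.3 and 41.0, a mean of 38.4 ± 4.70 (SD, n = 3). Library 1 was the lowest by less than 1.5-fold, at -0.31 on the log2 scale and -0.11 in the M4 table. Mybl1 and Mybl2, the other MYB genes, were not detected and had 15 and 70 counts in all. The leading transcript Myb-203, with the longest CDS of 2265 bases, held 56.8% in library 1, against 57.9% and 45.9%, a mean of 53.5% ± 6.63 (SD, n = 3). Myb-201 held 25.6% ± 5.83 (SD, n = 3). It lacks 1 exon of 357 bases, 119 codons at chr10:21144969-21145325 (minus strand). The first 60 bases of that exon and the junction that skips it are shown, with capitals for the exon and for the bases after the junction.
Myb-203: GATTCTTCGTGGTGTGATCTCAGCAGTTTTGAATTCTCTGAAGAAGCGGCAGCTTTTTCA
Myb-201: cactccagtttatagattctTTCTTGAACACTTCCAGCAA

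**Figure D2:**
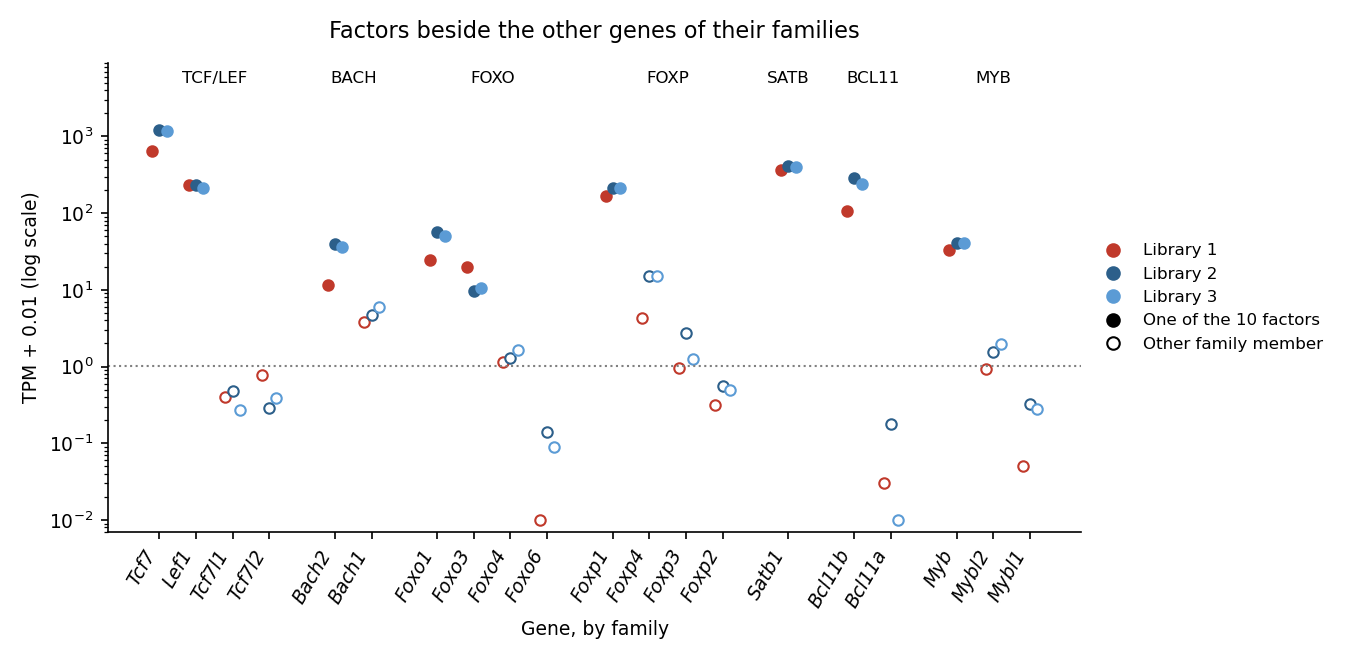
TPM on a log axis, with a small offset added so that values of 0 can be drawn, for the factors other than Ets1 (filled points) and the related genes of their families (open points) in libraries 1, 2 and 3. The dotted line is a TPM of 1, and among the open points only Bach1, Foxo4 and Foxp4 lie above it in every library.

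Transcript classes split the 10 genes. For 6 of them, namely Tcf7, Foxo1, Bcl11b, Ets1, Satb1 and Myb, more than 50% of transcripts were full-length. For Tcf7 and Foxo1 this was fixed in advance, since M21 lists none of their transcripts in the other classes. Full-length is relative to the longest annotated CDS, so for Tcf7 it does not tell the protein forms apart. For Lef1, Foxp1 and Foxo3 the class of short coding forms was in front, at 52.9% ± 4.22, 53.7% ± 6.37 and 74.5% ± 11.6 (SD, n = 3). The Foxp1 class includes transcripts whose annotated CDS is incomplete, led by Foxp1-218 at 18.9% ± 2.57 (SD, n = 3). Full-length forms of Foxp1 held 29.95% ± 4.57 (SD, n = 3), so these classes do not settle whether its complete short forms lead. For Bach2 67.0% ± 4.56 (SD, n = 3) had no CDS. The boundary of 90% matters for Lef1 and Foxp1: with 80% in its place their full-length shares were 71.8% and 62.3%. Transcripts with no CDS were estimated for 6 genes, Ets1, Satb1, Lef1, Foxp1, Myb and Bach2, and in each their share was lower in library 1 than in both others, for example 6.09% for Ets1, against 10.6% and 10.1%. The same held for 53.2% of the 7256 detected genes that have both kinds of transcript and a mean share of at least 1%. In 25.1% of them library 1 was the highest. The median gap of library 1 to the mean of the others was -2.485 percentage points over these genes. Over the 6 factors it was -5.63. This comparison was chosen after its values were seen. Forms differ outside the CDS as well, with annotated lengths of 5080 bases for Ets1-201 and 1976 for Ets1-202, and of 8111 for Bcl11b-201 and 2888 for Bcl11b-203, so the shares also rest on reads beyond the printed exons.

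**Figure D3:**
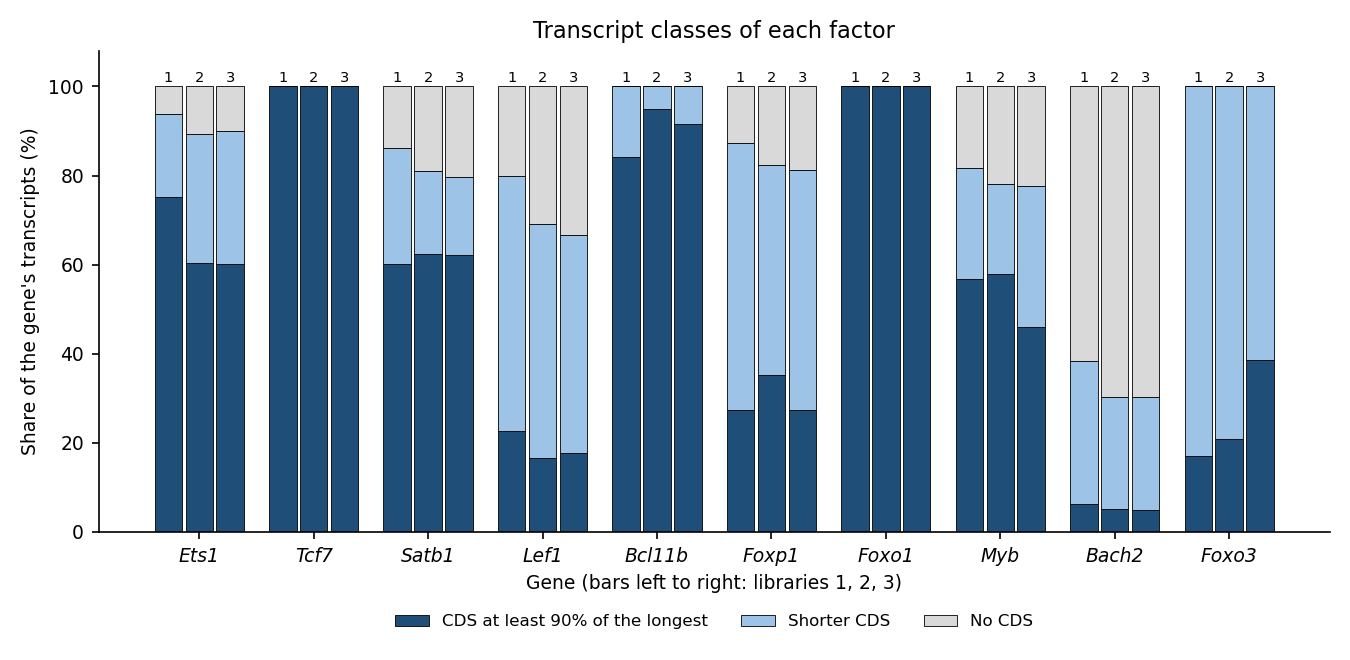
Share of each gene's transcripts in percent, by library (bars 1, 2 and 3 from left to right), split into transcripts with a CDS at least 90% of the longest, transcripts with a shorter CDS and transcripts with no CDS. Full-length forms fill the bars of Tcf7 and Foxo1, which have no annotated transcripts of the other classes. Transcripts with a shorter annotated CDS, for Foxp1 in part incomplete, lead for Lef1, Foxp1 and Foxo3, and transcripts with no CDS lead for Bach2.

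Whether the libraries differed beyond counting error was tested with Pearson's chi-square test on rounded expected counts, with Benjamini-Hochberg adjustment over all 13177 genes with at least 30 counts. All 10 factors passed at 0.05. So did 75.8% of all genes tested, and the count of 10 is to be read against that share. The statistic was highest for Tcf7 at 4087 and Bcl11b at 2947, and lowest for Myb at 24.0. Between libraries 2 and 3 alone 3 factors passed, Ets1, Bcl11b and Foxo3, where 16.7% of all genes did. With the statistic divided by 19.9, the median overdispersion of all genes, 5 factors passed, Ets1, Tcf7, Bcl11b, Foxo1 and Bach2, where 21.6% of all genes did. Over the M4 counts 6 factors passed, Lef1, Bcl11b, Foxo1, Myb, Bach2 and Foxo3, where 68.4% of all genes did. These tests compare libraries of 1 biosample and cover counting error only, since the tables carry no molecular identifiers.

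By size, 4 factors lay at least 1.5-fold lower in library 1 and beyond both other libraries, Tcf7, Bcl11b, Foxo1 and Bach2, and 1 lay higher, Foxo3. The shares over all detected genes were 23.9% lower and 17.9% higher. At 2-fold 3 of them were lower, Bcl11b, Foxo1 and Bach2, and none higher, against 12.3% and 5.58% of detected genes. In the M4 table Bcl11b and Bach2 lay at least 1.5-fold lower and Foxo3 higher, against 17.3% and 20.8% of 10008 genes. The median log2 ratio was -0.34 over the 10 factors and -0.05 over all detected genes. Other scalings of the counts put the median of detected genes at 0.06 under TMM and under DESeq2 factors, and at 0.12 in the M4 table. Relative to the median of detected genes in the same scaling, the ratios of Bcl11b, Foxo1 and Bach2 were -1.26, -1.02 and -1.58 in TPM and -0.90, -0.66 and -1.33 in the M4 table. Foxo3 stood at 0.95 and 0.62. Tcf7 stood at -0.82 and -0.20, so its gap was the one that shrank most. Ets1 changed sign, with 0.08 in TPM, 0.29 under TMM and -0.14 in the M4 table.

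**Figure D4:**
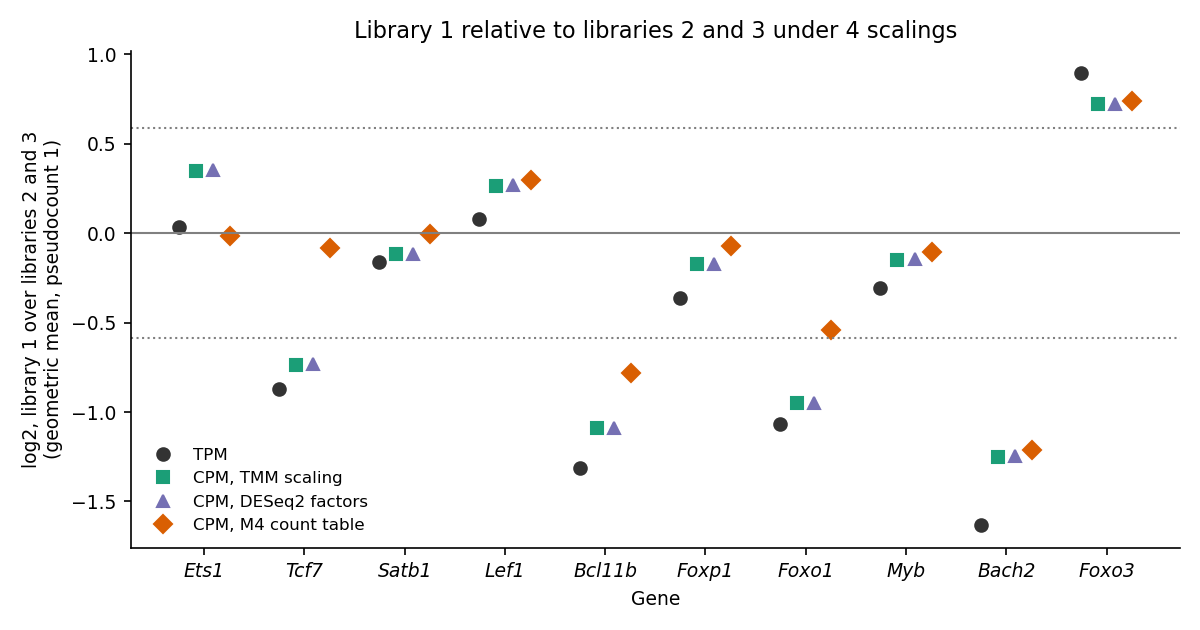
Log2 ratio of library 1 over the geometric mean of libraries 2 and 3 for each gene, from TPM, from counts scaled to the library total under TMM and DESeq2 scaling, and from the M4 count table, with dotted lines at 1.5-fold. Bcl11b, Foxo1 and Bach2 lie below 0 and Foxo3 above 0 under all 4, whereas Tcf7 is near 0 in the M4 table alone.

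Depth in the M4 table bears on these readings. It held 5104745 counts in library 1, against 5047736 and 5278506, which is 29.2% of the M21 total in library 1, against 33.0% and 31.3%. Coverage relative to the M21 estimates fell with the level of a gene: the median was 57.1% for genes with a mean TPM between 1 and 10 and 4.86% for the 106 genes at 1000 or more. Among the factors it was 5.42% for Ets1, 8.74% for Tcf7, 32.2% for Satb1, 25.9% for Lef1, 37.2% for Bcl11b and between 46.4% and 52.5% for Foxp1, Foxo1, Myb, Bach2 and Foxo3. Coverage was lowest for the most abundant factors, but not in strict order of level: Satb1 was above Lef1 in both level and coverage. The cause was not tested. GC content was a check added after the values were seen. Among the factors apart in library 1 it was 48.5% for Foxo1, 53.1% for Bach2, 53.6% for Tcf7, 60.02% for Bcl11b and 61.6% for Foxo3. Over all detected genes the median log2 ratio was -0.18 in the 2923 genes with the highest GC content and -0.003 in the 2922 with the lowest. In the group next above the lowest, which holds Foxo1, it was 0.02. In the group above that, which holds Tcf7 and Bach2, it was -0.08. Bcl11b and Foxo3 were in the highest group. The part of GC content in the values of the factors was not tested.

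Factors linked to effector cells were present as well. All 12 on the list were detected, with a median mean TPM of 43.7, led by Bhlhe40 at 619 ± 79.6 and Batf at 487 ± 3.23 (SD, n = 3). Tbx21, the gene of T-bet, had a TPM of 238 in library 1, against 195 and 167. The TPM ratio of Tcf7 to Tbx21, a pair chosen after its values were seen, was 2.72 in library 1, against 6.19 and 6.99, so Tcf7 was ahead in every library. Of 9 naive and memory surface and survival genes 8 were detected, led by the costimulatory receptor gene Cd28 at 440.05 ± 82.1 and Slamf6, a receptor used to mark stem-like T cells, at 323 ± 74.1 (SD, n = 3). Igfbp4 was not.

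For each factor the protein-coding gene with the most similar level was the one at the smallest Euclidean distance over log2(TPM + 1) in the 3 libraries. These were Rac2 for Ets1 at 0.19, Rpl18 for Tcf7 at 0.30, Anxa6 for Satb1 at 0.06, Spry1 for Lef1 at 0.07 and Zc3hav1 for Bcl11b at 0.13. They were Jak2 for Foxp1 at 0.10, Ralgapa1 for Foxo1 at 0.09, Nelfe for Myb at 0.06, Plekho2 for Bach2 at 0.06 and Haus1 for Foxo3 at 0.08. With 3 libraries such likeness is a description of levels alone. Other overlapping genes with a TPM of at least 1 in some library were A630014C17Rik and Gm26551 at Tcf7, Gm42449 and Gm43352 at Lef1, Gm20696 and Gm49348 at Foxp1, Gm38034 at Foxo1 and Bach2it1 at Bach2. Of these, Gm43352 shares 1208 exon bases with Lef1 on the opposite strand, at a mean TPM of 3.51. Its part in the counts and transcript shares of Lef1 was not tested. Gm26551 at Tcf7 shares no exon base with it, at a TPM of 1.87 in library 1, against 16.3 and 12.7.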

How the data were processed

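PolyA RNA was sequenced in 3 libraries, labelled technical replicates of 1 biosample. Per the file headers, the gene and transcript tables hold expected counts, estimates that divide a read between the transcripts it fits, with TPM and FPKM values, both per length and scaled within each library by the authors. The deposited transcript tables also give each transcript's percent of its gene and intervals for the TPM, which lie around the posterior mean TPM. Of the 83 transcripts of the factors, the TPM itself lay inside its interval for 43 in library 1, against 42 and 40. A headerless table by the authors holds whole-number counts per gene. The listings deposited with the libraries name mm10, with GENCODE M21 for the first tables and M4 for the last. The sources used here give neither the aligner, the quantifier, the strand setting nor the interval level.

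All 55536 rows with an Ensembl gene ID were matched to M21 symbols; rows of other IDs did not enter library totals or tests. Expected counts were rounded. Detection required a TPM of 1 or more in every library. Ratios used log2(TPM + 1). Genes with at least 30 counts entered the chi-square test with Benjamini-Hochberg adjustment over all of them, called at 0.05, and with 1 group no quasi-likelihood contrast exists. The test was run on simulated counts that carried counting error only. Those counts lack the overdispersion of these libraries, with a median of 19.9, so they cannot show how the test behaves here. TMM and DESeq2 factors came from edgeR 4.0.16 and DESeq2 1.42.0 in R 4.3.3. Python 3.11.15, numpy 2.4.6, scipy 1.17.1, pandas 2.3.3 and matplotlib 3.10.9 were used. A count of 0 allows up to 3 counts, for counting error only.

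The text names all 10 factors, their 2 leading transcripts, the gene of most similar level, overlapping genes with a TPM of at least 1 in any library, and in each list the 2 highest genes and up to 4 that were not detected. The factors and lists were chosen with earlier results of these data known. Genes outside this rule, and ratios of pairs, were chosen after their values were seen. Sequences came from GENCODE M21 transcripts and RefSeq promoters on GRCm38. Protein sequences were not used here, and 2 genes of the lists are not reported here.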

Additional observations from a re-analysis of the deposited data

How the results depend on the processing

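With 2-fold in place of 1.5-fold, 3 factors (Bcl11b, Foxo1 and Bach2) were apart in library 1 in place of 5, and in the M4 table, an alternative added after seeing the data, 3 were (Bcl11b, Bach2 and Foxo3). Factors that passed the chi-square test numbered 5 in place of 10 with the statistic divided by the overdispersion and 6 in the M4 table, and ranged from 3 to 10 with 1 library left out, 3 being the count without library 1. Separated neighbours, counted in the order that each set of libraries gave, ranged from 4 to 8, with 8 without library 1, where Bcl11b stood above Lef1. The median of the factors was 123 in FPKM in place of 205 in TPM, a change of unit; for the other changes of count the cause was not tested. No direction of a factor at least 1.5-fold apart was reversed. Full-length shares above 50% were found for 8 factors at a boundary of 80% and for 5 at 95%, where Bcl11b fell to 25.1%. Tcf7 and Foxo1 count at every boundary, since all their annotated transcripts have the longest CDS. Foxo3 and Bach2 rest on fewest counts, 969 and 1340 in all. No paired analysis was possible because the samples form 1 group.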
